A study of Rattus norvegicus with 18 samples.

Results

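Macrophages and other leukocytes that reside in or enter the kidney were followed here through 10 marker genes: Cd68, Coro1a, Ptprc, Cd53, Cd37, Lyz2, C1qb, Aif1, Fcer1g and Tyrobp. A probe set is a group of short probes for 1 transcript. Every probe set to which the platform annotation gives 1 gene symbol, that symbol being 1 of the 10, was used. All 10 were among the 10969 genes named this way on the arrays, with 17 of the 26202 non-control probe sets of the series. The values are signals in kidney from congenic rats (3 samples) and Dahl salt-sensitive (S) rats (3 samples). The Dahl S rat is an inbred strain that becomes hypertensive on dietary salt. The congenic strain has the same S background and carries a chromosome 9 segment of a salt-resistant (R) rat that, per the labels, holds a blood pressure locus. Total RNA from a sample went onto 1 array of each of 3 types, named A, B and C below. The labels used here give no age, sex, diet or treatment. Nor do they state that the samples of a strain come from different rats, so each p-value reflects only how far these samples vary, possibly for technical reasons.

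Resident macrophages line the tubules and capillaries of the kidney, clear debris and recruit further blood leukocytes when tissue is injured. Their number is known to grow in hypertensive kidney damage of salt-loaded Dahl S rats. The 10 genes mark these cells at different points. Cd68 (a lysosomal membrane glycoprotein), Lyz2 (secreted lysozyme), C1qb (a chain of complement C1q) and Aif1 (the calcium-binding protein also called Iba1) are known as macrophage products. Tyrobp and Fcer1g are membrane adaptors that couple activating receptors of myeloid and natural killer cells to the kinase Syk. Coro1a is an actin regulator of all blood leukocytes. Ptprc, the leukocyte common antigen, is a surface tyrosine phosphatase, and Cd53 and Cd37 are tetraspanins of leukocyte membranes. By the GRCr8 gene table, Coro1a, Cd37 and Tyrobp lie on chromosome 1, Cd53 on 2, C1qb on 5, Lyz2 on 7, Cd68 on 10, Ptprc and Fcer1g on 13 and Aif1 on 20, so none lies on the chromosome of the introgressed segment.

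PU.1 is a transcription factor that drives myeloid genes and binds sites with the core GAGGAA. RefSeq promoter windows of the GRCr8 build, 250 bases before to 50 after the gene start, were available for 7 of the 10 genes. This core was searched on both strands as GAGGAA or its reverse complement TTCCTC. It occurred in 6 of the 7 windows (not in that of Coro1a), against 27.6% of all 33469 windows. In 5 of the 7 it lay within the last 100 bases before the start, against 9.78% of all windows, a distance chosen after the matches were seen. Those 5 stretches are shown because they hold the letters the genes have in common next to their start. Each runs 5′ to 3′ on the gene's strand, with the core in capitals.
Cd68, chr10:54882442-54882541, minus strand: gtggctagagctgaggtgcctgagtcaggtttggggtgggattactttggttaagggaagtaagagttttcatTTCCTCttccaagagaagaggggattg
Lyz2, chr7:54798012-54798111, minus strand: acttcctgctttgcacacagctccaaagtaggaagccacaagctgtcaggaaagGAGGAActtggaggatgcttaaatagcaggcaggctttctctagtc
C1qb, chr5:154407828-154407927, minus strand: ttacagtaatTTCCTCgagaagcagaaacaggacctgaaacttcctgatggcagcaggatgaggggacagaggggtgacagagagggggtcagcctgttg
Cd53, chr2:197087897-197087996, minus strand: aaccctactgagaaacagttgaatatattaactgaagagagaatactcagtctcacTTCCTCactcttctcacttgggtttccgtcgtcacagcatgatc
Cd37, chr1:104860785-104860884, minus strand: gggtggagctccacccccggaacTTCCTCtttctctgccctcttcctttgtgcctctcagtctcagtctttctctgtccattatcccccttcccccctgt
A match is a description of the letters, not a shown binding site. Ptprc has the core farther from its start.

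Across the series, median signals per array ran from 34.8 to 78.5, and the number of arrays limits the precision. Signals under 3.1, 6.8 and 4.9 units (the floors of types A, B and C, at the 10th percentile) were raised to that level. Probe sets whose mean lay below a filter level of 21.2, 39.3 and 37.7 units on types A, B and C were not tested. The filter left 12 of the 17 probe sets, from 8 genes, since the 4 Ptprc probe sets and the Cd53 probe set were too dim. Kidney identity was plain: all 12 kidney epithelial markers on the arrays passed the filter, with Umod at 6514 to 7154 units in congenic and 5763 to 7455.6 in Dahl S samples. The leukocyte label held less well. Lyz2 and Cd68 were well above the filter level in every sample, but not all macrophage products were. On type A, C1qb read down to 11.8 (X71127_g_at, Dahl S sample 3) and Aif1 down to 19.6 (U10894_s_at, congenic sample 1). Of 23 other macrophage, monocyte and dendritic cell genes on the arrays, 14 passed the filter. The 4 probe sets of Ptprc, the defining marker of all leukocytes, lay below the filter level in nearly all samples. Samples numbered 1 stood apart from the others in both strains: over the tested probe sets their log2 signals correlated at 0.93 with each other, and each at 0.87 to 0.90 with samples 2 and 3 of either strain.

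All 17 probe sets had a lower mean log2 signal in the congenic than in the Dahl S kidneys, by 0.06 to 1.40 log2 units (congenic minus Dahl S, -1.40 to -0.06), and the median of the 12 tested probe sets was -0.52. Over all 26202 non-control probe sets 49.2% were lower. Of those tested 50.5% were lower, with a median of -0.003. None of the 12 tested probe sets passed limma at an adjusted p of 0.05 (adjusted p = 0.9997 for each, against 0 of 15721 called in all, 0%). At an unadjusted limma p under 0.05 there was 1 of the 12, a Coro1a probe set, where 2.49% of all tested probe sets lay in either direction and 1.32% were lower. In each of the 12 the mean of both strains lay above the filter level. The strains did not overlap in 3 of the 12 (Cd68, 1 of 2 for Coro1a and 1 of 3 for Aif1), all lower, against 3.49% of all tested probe sets. In bulk tissue, fewer leukocytes and less of these RNAs per cell cannot be told apart.

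**Figure D1:**
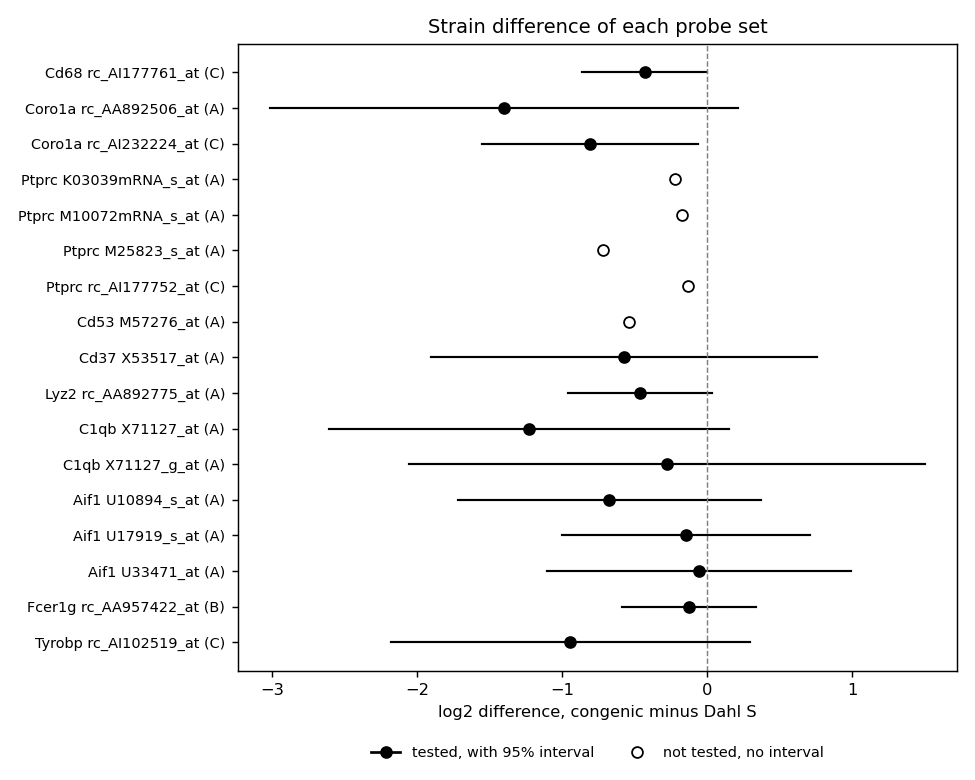
Strain difference of each of the 17 probe sets on the log2 scale, congenic minus Dahl S, with the array type in brackets. Filled points have the 95% interval of the limma fit (n = 3 per strain), and open points are the 5 untested probe sets. All points lie left of 0, and 11 of the 12 intervals reach across it.

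Among the macrophage products, Cd68 had the smallest SE of the 12 tested probe sets. Its signal was 230.0, 306.3 and 205.2 in congenic samples 1, 2 and 3, against 315.2, 314.2 and 357.9 in Dahl S samples 1, 2 and 3. The strains did not overlap, although congenic sample 2 came close to the Dahl S values. The difference was -0.43 log2 units (SE 0.19, 95% interval -0.86 to 0.002, 1.35-fold lower in congenic, limma unadjusted p = 0.0507). Lyz2, from a family of closely related lysozyme genes that the probes may not tell apart, read 673.7, 653.7 and 710.7 in congenic samples, against 1038.1, 1191.6 and 661.3 in Dahl S samples. Dahl S samples 1 and 2 were high and Dahl S sample 3 lay among the congenic values. The Lyz2 difference was -0.46 (SE 0.22, 1.38-fold lower in congenic, limma unadjusted p = 0.0648).

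C1qb, whose product starts the classical complement cascade, had a pair of probe sets made from the same sequence. The first, X71127_at, read 105.9, 22.8 and 75.8 in congenic samples, against 163.9, 195.7 and 73.3 in Dahl S samples. Congenic sample 2 was by far the lowest, and Dahl S sample 3 again lay among the congenic values. The difference was -1.23 (SE 0.60, 2.34-fold lower in congenic, limma unadjusted p = 0.0745), and -0.57 without congenic sample 2. The other, X71127_g_at, read 44.6, 18.5 and 44.2 in congenic samples, against 61.1, 90.0 and 11.8 in Dahl S samples. There the lowest value was that of Dahl S sample 3, below the filter level as was congenic sample 2. Its difference was -0.28 (SE 0.77), with a 95% interval of -2.06 to 1.5.

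Aif1 is known to be induced in activated macrophages, and its 3 probe sets gave differences of different size. The suffix s_at marks probe sets that may match several transcripts. U10894_s_at read 19.6, 54.5 and 52.0 in congenic samples, against 56.8, 72.1 and 55.1 in Dahl S samples. The strains did not overlap, but only congenic sample 1, below the filter level of 21.2, stood far from the rest. The difference was -0.67 (SE 0.46, limma unadjusted p = 0.177), and -0.19 without congenic sample 1. U17919_s_at (34.9, 49.9 and 59.7 in congenic, 39.8, 70.5 and 50.4 in Dahl S) gave -0.15 (SE 0.37), and U33471_at (28.6, 36.4 and 20.1 in congenic, 26.9, 24.5 and 35.6 in Dahl S) gave -0.06 (SE 0.46). Both differences were smaller than their SE, and their values overlapped.

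The adaptors of activating receptors did not match each other in size. Tyrobp read 99.6, 48.8 and 72.2 in congenic samples, against 250.4, 184.1 and 54.3 in Dahl S samples. Dahl S samples 1 and 2 were above all congenic samples, and Dahl S sample 3 was below 2 of them. The Tyrobp difference was -0.94 (SE 0.54, 1.93-fold lower in congenic, limma unadjusted p = 0.118), -0.50 without Dahl S sample 1 and -1.61 without Dahl S sample 3. Fcer1g read 840.9, 1022.1 and 1073.9 in congenic samples, against 856.0, 1354.4 and 1032.9 in Dahl S samples. Its strains overlapped apart from Dahl S sample 2. The Fcer1g difference was -0.13 (SE 0.21, 95% interval -0.59 to 0.34), and +0.05 without Dahl S sample 2.

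Coro1a, which regulates the actin cortex of leukocytes, had the smallest p of the 8 tested genes. Its type C probe set rc_AI232224_at read 72.1, 93.2 and 45.8 in congenic samples, against 123.7, 142.2 and 94.5 in Dahl S samples. The strains did not overlap, though congenic sample 2 and Dahl S sample 3 were nearly level. The difference was -0.81 (SE 0.33, 95% interval -1.56 to -0.07, 1.75-fold lower in congenic, limma unadjusted p = 0.0361, adjusted p = 0.9997). Its type A probe set rc_AA892506_at read 60.4, 11.8 and 80.5 in congenic samples, against 136.7, 125.7 and 61.4 in Dahl S samples. Here the strains overlapped, and congenic sample 2 was below the filter level. The difference of -1.40 (SE 0.70, limma unadjusted p = 0.0806) was -0.55 without that sample.

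Of the leukocyte surface proteins Ptprc, Cd53 and Cd37, only Cd37 was bright enough to be tested. Cd37, a tetraspanin best known from B cells, read 78.1, 45.6 and 16.9 in congenic samples, against 87.2, 53.1 and 42.8 in Dahl S samples. Congenic sample 3, below the filter level, was the lowest, and the other samples of the strains were interleaved. The difference was -0.57 (SE 0.58, limma unadjusted p = 0.352), and +0.03 without congenic sample 3. Cd53 read 35.9, 1.9 and 24.2 in congenic samples, against 40.3, 17.9 and 11.4 in Dahl S samples, with congenic sample 2 under the floor. It was not tested: the difference of mean log2 signals was -0.54. Without congenic sample 2 it passed the filter and was +0.55 (limma adjusted p = 0.999).

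The 4 Ptprc probe sets were also not tested. K03039mRNA_s_at was under the floor in 5 of 6 samples, and M10072mRNA_s_at (2.4 to 8.6 units) and rc_AI177752_at (1.0 to 15.1 units) were below the filter level in all 6. M25823_s_at read 15.3, 15.2 and 10.8 in congenic samples, against 68.9, 9.8 and 16.7 in Dahl S samples. Dahl S sample 1 alone was above the filter level. The differences of mean log2 signal of the 4, from -0.72 to -0.14, are therefore differences between dim values, and no fold is given. Without Dahl S sample 1 they were 0 for K03039mRNA_s_at, +0.17 for M10072mRNA_s_at, +0.44 for rc_AI177752_at and +0.09 for M25823_s_at.

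**Figure D2:**
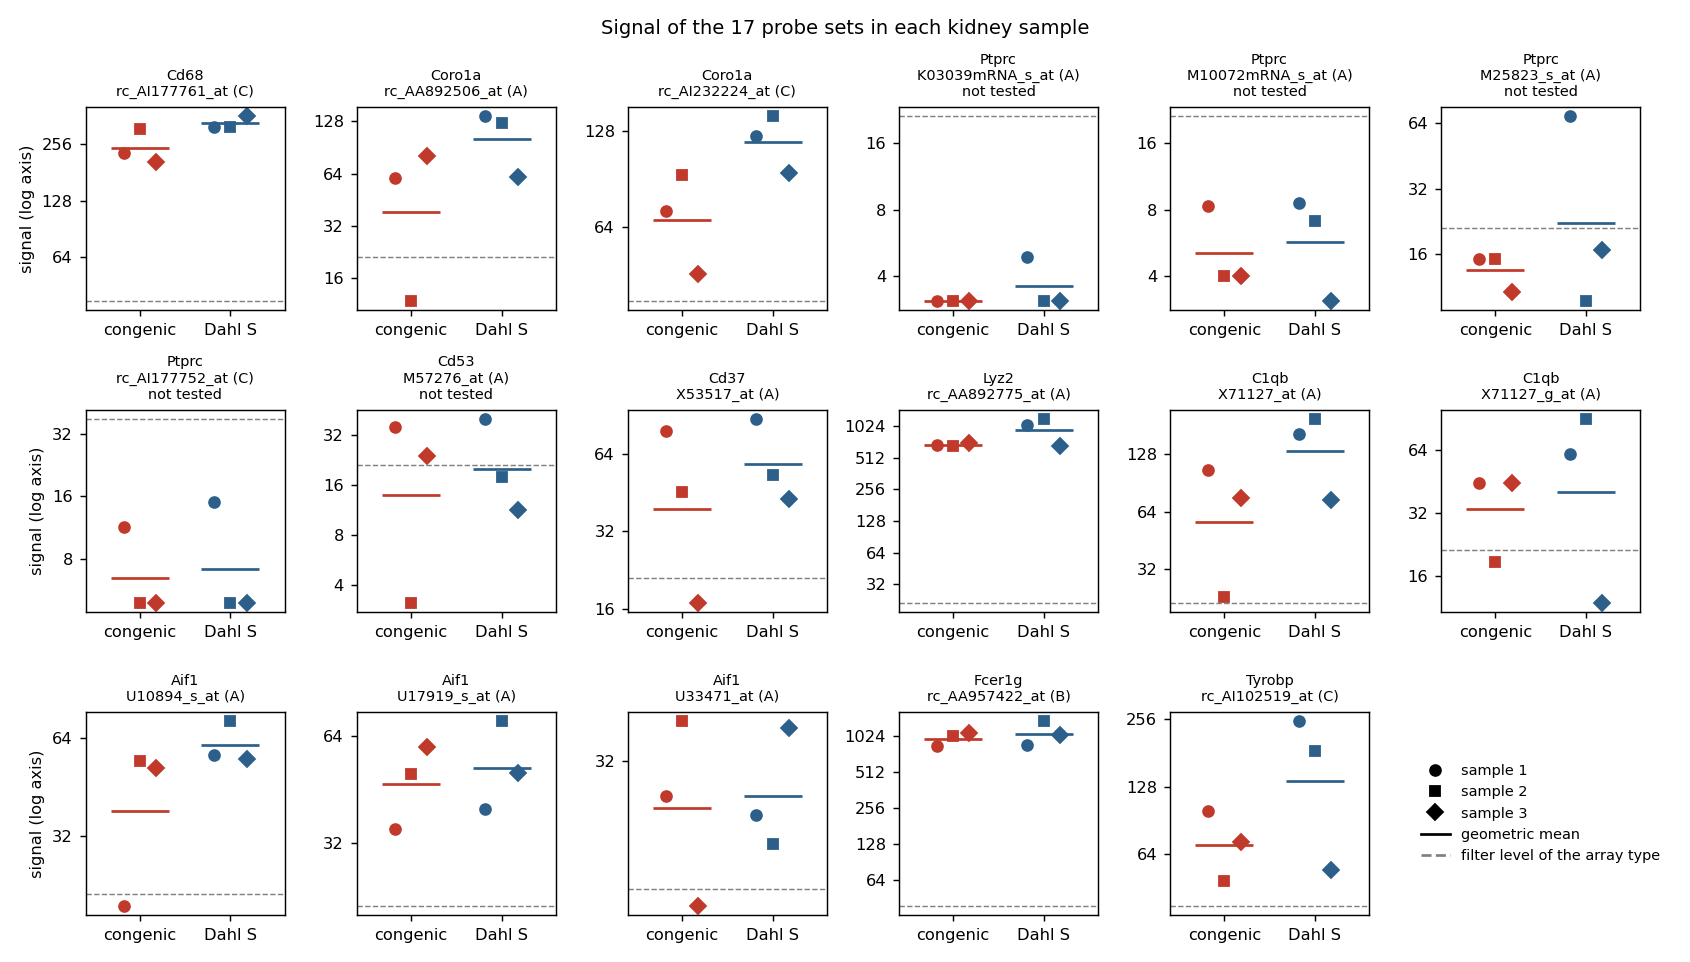
Signal (vertical log axis, arbitrary units) of the 17 probe sets in the 3 congenic samples (left of each panel) and the 3 Dahl S samples (right), with marker shapes for the sample number, a line at the geometric mean and a dashed line at the filter level. Values under the floor are drawn at it. Cd68, Lyz2 and Fcer1g are above the filter level in every sample, and the 4 Ptprc probe sets are below it in nearly all.

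The strain difference was carried unevenly by the samples. Over the 12 tested probe sets, Dahl S sample 2 had the highest signal in 7 and Dahl S sample 1 in 3, and the lowest was congenic sample 1 in 3, congenic sample 2 in 4 and congenic sample 3 in 4. With each of the 8 genes represented by its brightest probe set and centred on its mean, the average log2 level was -0.08, -0.39 and -0.42 in congenic samples 1, 2 and 3, against 0.45, 0.57 and -0.13 in Dahl S samples 1, 2 and 3. Dahl S sample 3 thus read below congenic sample 1. Set side by side by sample number, congenic was lower than Dahl S in 11 of 12 probe sets for number 1, in 11 of 12 for number 2 and in 5 of 12 for number 3, with median differences of -0.54, -0.55 and +0.05. Without Dahl S sample 3 the median of the 12 was -0.77, with 11 lower and 4 at an unadjusted limma p under 0.05, and without Dahl S sample 1 or 2 it was -0.42 or -0.51, with 0 at that level. The count of lower probe sets was 9 of 12 without Dahl S sample 2. Without both samples numbered 1 all 12 were lower, with a median of -0.40.

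**Figure D3:**
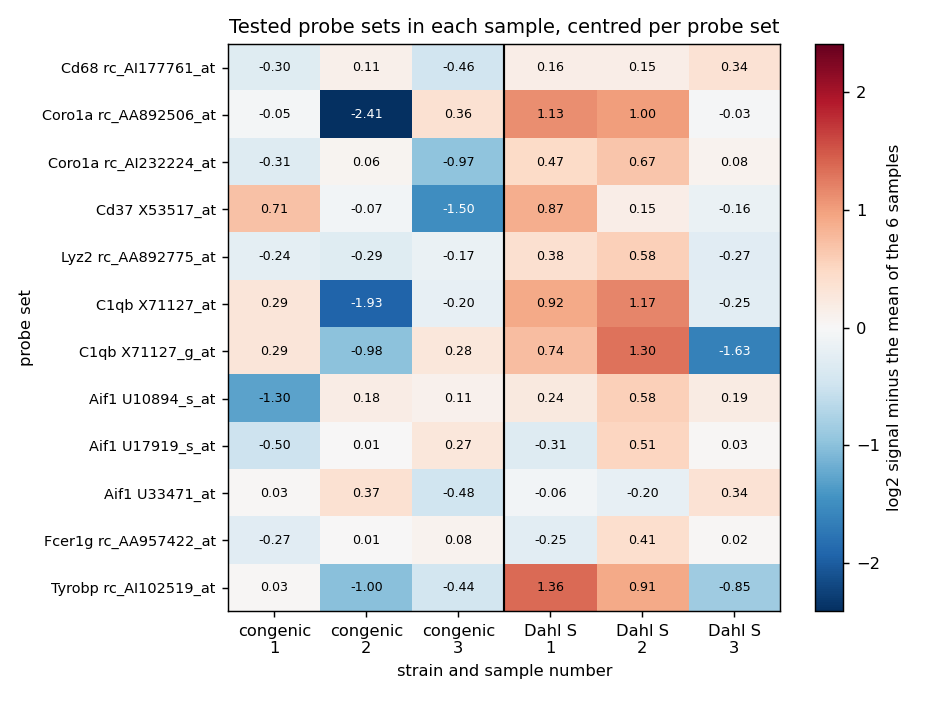
Log2 signal of the 12 tested probe sets in each sample, minus the mean of the 6 samples (colour and printed value), congenic samples left of the black line and Dahl S samples right of it. Dahl S samples 1 and 2 are mostly above the mean, while Dahl S sample 3 holds both high and low values.

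Other macrophage, monocyte and dendritic cell genes, a list of 34, had 14 tested genes. Of these 13 were lower in congenic and 1 higher, with a median of -0.61, where 51.1% of the 8168 tested genes of the arrays were lower and their median was -0.006. By limma 0 of the 14 passed the adjusted threshold (0% of all genes), and 2 had an unadjusted p under 0.05, against 2.35% of all genes. The strains did not overlap in 5 of the 14, all lower, against 3.8% of all genes. Lgals3, the galectin of macrophages and of some tubule cells, read 135.2, 71.6 and 103.0 in congenic samples, against 156.8, 218.3 and 149.7 in Dahl S samples (-0.79, SE 0.29, limma unadjusted p = 0.0254). Gpnmb, a glycoprotein of phagocytes and other cells, gave -1.32 (SE 0.56, limma unadjusted p = 0.0456). Its congenic mean lay below the filter level, so it was tested only through its Dahl S values. The same held for Cx3cr1, at 32.3, 13.3 and 7.4 in congenic samples, against 54.2, 15.9 and 37.4 in Dahl S samples (-1.11, SE 0.74). The places of both genes among the 13 lower ones and in the median are no support for them. Nor are the places of Gpnmb in the other counts above (1 of the 2 and 1 of the 5). Mpeg1, the pore-forming perforin-2 of macrophages, gave -0.67 (SE 0.30). In contrast Ctss, the lysosomal cathepsin S of antigen-presenting cells, differed by -0.02 (SE 0.22). Cd86, a costimulatory ligand, was the 1 higher gene (+0.85, SE 0.61), below the filter level in 2 Dahl S samples. Its Dahl S mean lay below that level too, so it was tested only through its congenic values and is no support for a contrast. The untested Cd86 probe sets gave -0.19 and +0.70. Cx3cr1, Ctss and Cd86, and the genes of the next paragraph, were named after their values were seen.

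Partners of the 10 genes were on that list too. C1qa, the other chain measured beside C1qb, read 528.3, 572.9 and 517.8 in congenic samples, against 627.4, 993.9 and 642.7 in Dahl S samples. All Dahl S samples were above all congenic ones, and the difference was -0.45 (SE 0.21, limma unadjusted p = 0.0621). The brightest probe set of C1qc, the remaining C1q chain, gave -0.04 (SE 0.20) and another gave -0.43 (SE 0.29). Fcgr3a, an IgG receptor that signals through the Fcer1g adaptor, read 54.6, 94.9 and 104.3 in congenic samples, against 137.7, 124.6 and 157.9 in Dahl S samples, also without overlap (-0.78, SE 0.36, limma unadjusted p = 0.0580). Csf1r, the growth factor receptor of macrophages, gave -1.29 (SE 0.74), with congenic sample 3 at 18 and the other 5 samples between 129.2 and 216.9. The untested Csf1r probe set, at 7.3 to 19.7 units, gave +0.02.

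Lists of other leukocyte genes had medians of -0.29 to -0.06, where 51.1% of all tested genes were lower and their median was -0.006. Other pan-leukocyte genes were lower in 9 of 12 tested genes (median -0.19), among them the integrin chain Itgal (-0.31, SE 0.21). Laptm5, a lysosomal protein of leukocytes, gave +0.54 (SE 0.44), but its other probe set gave -0.03. Lymphocyte genes were lower in 11 of 19 (median -0.06, and +0.19 without Dahl S sample 3). The smallest p of that list belonged to Nkg7, a granule protein of natural killer and cytotoxic T cells, which read 64.3, 86.4 and 83.9 in congenic samples, against 47.7, 35.0 and 31.0 in Dahl S samples. It was the only lymphocyte gene of the 19 without overlap, where 7.62% of all genes had none in either direction, and was higher in congenic (+1.06, SE 0.36, limma unadjusted p = 0.0174), with Dahl S samples 2 and 3 and the Dahl S mean below the filter level, so it was tested only through its congenic values. The checkpoint receptor Ctla4 gave -0.98 (SE 0.59, with 3 samples below the filter level) and the cytokine receptor chain Il2rg -0.36 (SE 0.24). The congenic mean of Ctla4 lay below the filter level, so it was tested only through its Dahl S values. Its untested probe set gave +0.21. Likewise Cd3g (+0.55, SE 0.68), named after its values were seen, was tested only through its congenic values. The places of Nkg7, Ctla4 and Cd3g in the lymphocyte count and median are no support for them. Granulocyte and mast cell genes had 4 tested members, 3 of them lower (median -0.29): Cma1, mast cell chymase (-0.39, SE 0.33), Tpsb2, a mast cell tryptase (-0.19, SE 0.21), and S100a8, a neutrophil calgranulin (-0.50, SE 0.58). None of these passed limma's adjusted threshold, and no test of the difference between the lists was made.

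**Figure D4:**
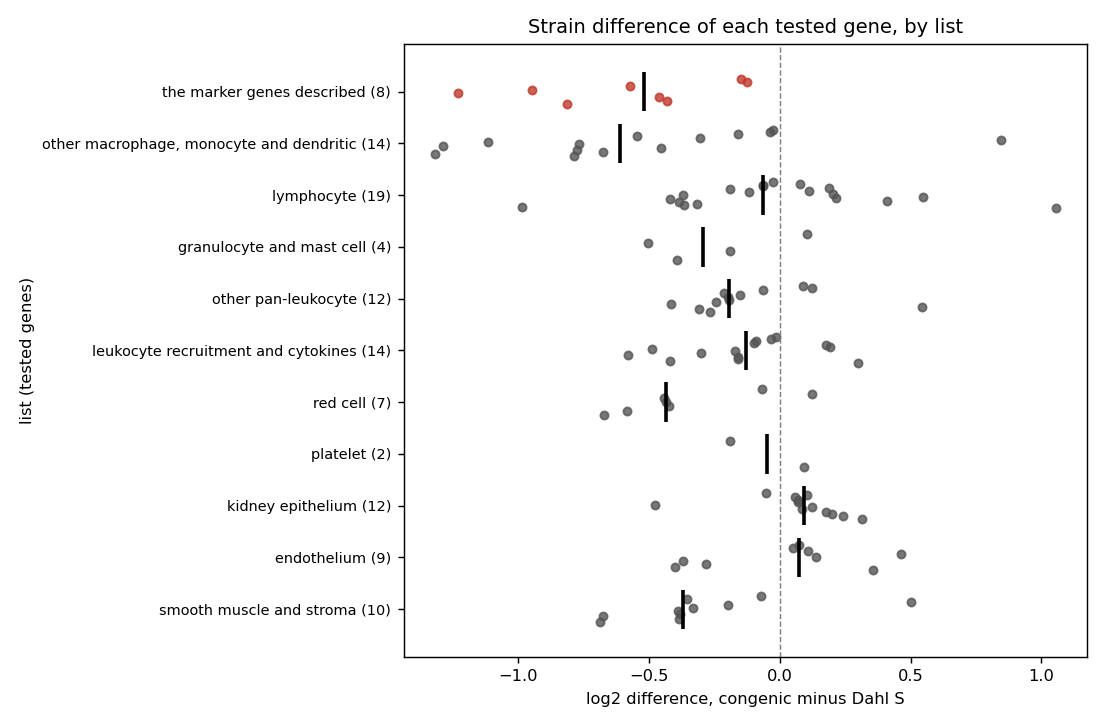
Log2 difference, congenic minus Dahl S, of each tested gene by list, each gene represented by its brightest tested probe set, with a black bar at the median of the list and the number of tested genes in brackets. The medians of the 8 marker genes described (-0.52) and of the other macrophage list (-0.61) lie left of those of the lymphocyte list (-0.06) and of the kidney epithelium list (+0.09). Those of the red cell list (-0.43) and of the smooth muscle and stroma list (-0.37) lie in between.

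Markers of other cell types also differed between the strains in places, none past limma's adjusted threshold (0% of all genes). Of all tested genes 51.1% were lower in congenic. Smooth muscle and stroma genes were lower in 9 of 10 (median -0.37), led by Dcn (decorin, -0.69, SE 0.17), Col1a1 (-0.38, SE 0.13) and Acta2 (smooth muscle actin, -0.67, SE 0.27). Other tested probe sets gave -0.52 (SE 0.26) and -0.20 (SE 0.24) for Acta2, and -0.56 (SE 0.26), -0.55 (SE 0.31) and -0.19 (SE 0.30) for Dcn. A further probe set of each gene, at -0.22 (SE 0.97) for Acta2 and -1.06 (SE 0.97) for Dcn, had a congenic mean below the filter level. Both were tested only through their Dahl S values, so they are no support for a difference. An unadjusted limma p under 0.05 was found in 3 of the 10, against 2.35% of all genes. The strains did not overlap in 3 of the 10, all lower, against 3.8% of all genes. Their summed signal was 4690.0, 4853 and 5192 in congenic samples, against 5942, 7280 and 6434 in Dahl S samples, so the strains did not overlap, and its part in the leukocyte differences was not tested. Kidney epithelial markers were higher in 10 of 12 (median +0.09), with Pck1, the gluconeogenic carboxykinase (+0.31, SE 0.16), the androgen-regulated protein Kap (+0.24, SE 0.14) and the organic anion transporter Slc22a6 (+0.20, SE 0.13). Endothelial markers were lower in 3 of 9 (median +0.08), with Emcn at +0.36 (SE 0.16), Pecam1 at -0.40 (SE 0.28) and Cdh5 at -0.28 (SE 0.20). Another tested probe set gave -0.12 (SE 0.25) for Pecam1 and -0.12 (SE 0.40) for Cdh5. The median was the value of Vwf (+0.08, SE 0.53), named after its values were seen. The Dahl S mean of Vwf lay below the filter level, so it was tested only through its congenic values. Its place in the endothelial count and median is no support for them. Red cell genes followed another sample order than the average of the 8 tested marker genes. Their summed signal was 19176, 16000 and 10146 in congenic samples, against 12600, 14952 and 52259 in Dahl S samples, so Dahl S sample 3, on average the lowest Dahl S sample over the 8 tested marker genes, was by far the highest for red cells. Without it the red cell list had 1 of 7 genes lower (median +0.12), against 6 of 7 with it (median -0.43). The alpha-globin Hba-a1, whose probes may match other globin copies (-0.67, SE 0.52), Hba-a3 (-0.58, SE 0.59) and the heme enzyme Alas2 (-0.42, SE 0.45) had the smallest p there. Platelet genes had 2 tested members, Itga2b (+0.09) and Gp9 (-0.19). The log2 ratio of 3 prime to 5 prime GAPDH control signal, a measure of RNA quality, was 0.11 to 0.63 in congenic and 0.31 to 0.68 in Dahl S samples (exact two-sided permutation p = 0.5, where 3 against 3 cannot go below 0.1), and for beta-actin 0.50 to 1.35 in congenic and 0.49 to 1.10 in Dahl S samples (exact two-sided permutation p = 0.7). In both strains the samples numbered 1, which stood apart in correlation, had the lowest ratios: 0.11 in congenic and 0.31 in Dahl S for GAPDH, with the other 4 samples at 0.54 to 0.68, and 0.50 in congenic and 0.49 in Dahl S for beta-actin, with the other 4 at 1.07 to 1.35. The part of these ratios in the results was not tested.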

How the data were processed

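Total kidney RNA from 3 congenic and 3 Dahl S samples was measured on 3 array types (18 arrays). Groups and sample numbers came from the titles, and the tag in the labels joined the arrays of a sample. The authors' deposited intensity values, 1 for each probe set and not in logs, had nearly the same trimmed mean (2% off each end) on all arrays of a type, 150.1 or 150.2, and were not scaled further. The sources used here do not name the software that made them. Values below the 10th percentile of a type were raised to it, log2 was taken, 59 controls per type were left out, and 15721 probe sets above the 40th percentile of mean log2 signal were tested with limma 3.58.1 in R 4.3.3 (eBayes with trend, 1 fit per type, Benjamini-Hochberg adjustment over all types). The fit was tested on simulated data. Each gene in a list was represented by its brightest tested probe set. Of the annotated probe sets 18178 had 1 symbol, 391 several and 7633 none, and 18122 of the first matched the GRCr8 table by gene ID. The members, lists, tests and alternatives were chosen with earlier results of these data known. Named were all members, in each list any called gene or else those 3 of smallest unadjusted p, and the 5 genes most like the mean of the members, with exceptions stated; 1 pan-leukocyte gene that this rule names is not reported here. Alternatives covered the floor, filter, normalization, eBayes settings, sample number as a block, samples left out and other probe set summaries. Plots were made in matplotlib 3.10.9.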

Additional observations from a re-analysis of the deposited data

How the results depend on the processing

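No alternative called a probe set: limma's count at the adjusted threshold was 0 throughout, with 391 at an unadjusted p under 0.05 in the reported setting and 798 without the filter, 259 with a filter at the 60th percentile, 819 with sample number as a block, 704 with a term for samples numbered 1 and 592 without congenic sample 1. Same-numbered samples deviated together with correlations of 0.45, 0.08 and 0.18, so the numbers were not taken to pair them; with the replicate block the median over the marker probe sets stayed -0.52 with 3 at an unadjusted p under 0.05, and the samples numbered 2 correlated better with another number. Leaving out 1 sample gave 9 to 11 lower marker probe sets and medians of -0.77 to -0.42. Of 289 values of single marker probe sets under alternatives, 264 kept their sign and 10 turned sign among the probe sets tested in the reported setting; the others belonged to Ptprc and Cd53, and Cd53, +0.55 without congenic sample 2, then passed the filter. For Aif1 U33471_at the value was +0.0045 under quantile normalization and -0.26 to +0.17 with a sample left out. With a sample left out the others ran from -0.34 to +0.0702 (Aif1 U17919_s_at), -1.07 to +0.0336 (Cd37), -1.16 to +0.30 (C1qb X71127_g_at) and -0.28 to +0.0503 (Fcer1g). The untested Ptprc probe set K03039mRNA_s_at was +0.48 without a floor. With the filter at the 60th percentile fewer were tested: 5 of 5 marker probe sets were lower, 8 of 8 other macrophage, 5 of 7 lymphocyte, 7 of 10 recruitment and 0 of 1 platelet genes. Without a filter 21 of 23 other macrophage, 16 of 21 pan-leukocyte, 6 of 12 granulocyte and mast cell and 2 of 5 platelet genes were lower. The pan-leukocyte median was -0.093 under median scaling, -0.11 without both samples numbered 1 and -0.26 to -0.10 with 1 sample left out. Without both samples numbered 1 the recruitment list had 7 of 13 genes lower and the endothelial list 5 of 9. Under quantile normalization 4 of 12 kidney epithelial genes were lower. With 1 sample left out the lower genes numbered 1 to 5 (kidney epithelium), 2 to 6 (endothelium), 0 to 1 (platelet), 6 to 12 (recruitment, median -0.23 to +0.0182) and 1 to 6 (red cell), and the lymphocyte median ran from -0.16 to +0.19. Apart from the smaller sets tested under the filters, the cause was not tested. Dim signals limit Ptprc and Cd53 most.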

Other observations

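Genes of leukocyte recruitment and cytokines had 14 tested members, 11 lower and 3 higher in congenic kidneys, with a median log2 difference of -0.13. Of all tested genes 51.1% were lower, and their median was -0.006. Il18 (-0.58, SE 0.62), among the 11, had a congenic mean below the filter level. It was tested only through its Dahl S values, so its place in the count and median is no support for them. With the brightest probe set standing for each gene, none of the 14 passed limma's adjusted threshold (0% of all genes). An unadjusted limma p under 0.05 was found in 0 of the 14, against 2.35% of all genes. A dimmer probe set of Vcam1, the endothelial adhesion molecule for leukocytes, read 26.7, 34.3 and 41.1 in congenic samples, against 61.5, 77.9 and 52.8 in Dahl S samples (-0.92, SE 0.35, limma unadjusted p = 0.0299), while its brightest gave -0.03 (SE 0.20). Icam1, the endothelial ligand of leukocyte integrins, gave +0.30 (SE 0.22) and, by another probe set, -0.44 (SE 0.32), with Cxcl10, an interferon-induced chemokine, at -0.42 (SE 0.31) and Mif, the macrophage migration inhibitory factor, at -0.16 (SE 0.13). Ccl2, the main attractant of monocytes, read 75.8 to 107.8 in congenic samples, against 84.1 to 120.5 in Dahl S samples (-0.17, SE 0.26). Csf1 (+0.18, SE 0.32) and Il34 (-0.16, SE 0.17), the ligands of Csf1r, overlapped between the strains. Il18, Vcam1, Ccl2, Csf1 and Il34 were named after their values were seen.

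Of 8160 other genes, those whose log2 signal followed the mean of the 8 tested marker genes most closely over the 6 samples were Ap2s1, a subunit of the clathrin adaptor (Pearson's r 0.975, n = 6), Apool, a mitochondrial inner membrane protein (0.972), Dmap1, a chromatin protein (0.971), Crip1, a LIM domain protein (0.969), and Hrh3, a histamine receptor (0.964). The points share their arrays, and 50 genes had an r above 0.9, so these values are a description.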
